A study of Mus musculus with 48 samples.

Results

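Knockdown of Jun was compared directly with knockdown of Stat3 in cultured mouse sensory neurons. The comparison takes the 4 siJun and the 4 siStat3 libraries, 8 of the 48 in the series, by their treatment labels. No measured value decided which libraries entered, but the comparison itself was chosen with earlier results of these data known. All 8 came from neuron-enriched cultures of dorsal root ganglion (DRG, the ganglion of sensory neuron cell bodies) of adult wild-type mice, in which dissociation cuts the axons. Both groups were grown in Neurobasal-A with B27, given an ON-TARGETplus siRNA pool with Dharnafect 2 (the labels' spelling) right after isolation, and were harvested at 42 h. They differ, per the labels, only in the pool: one against Jun, the other against Stat3. Sex and exact age are not in the labels, nor is the origin of the replicates (separate animals or separate cultures). The p-values therefore describe the spread among these libraries, and that spread may be technical. As there was 1 pool per target, an effect of losing the target and any other effect of the pool cannot be told apart. The 4 libraries of the control pool (siCONTROL) took no part in the test, and their levels are given only as a reference.

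Both factors are activated when a peripheral axon is cut. Jun, a basic leucine zipper protein activated by the DLK and JNK kinases, pairs with Fos, ATF or other Jun family members to form AP-1 and bind the sequence TGANTCA. Stat3 is phosphorylated by JAK kinases after cytokines of the interleukin 6 family engage the shared receptor gp130, and as a dimer binds elements of the form TTCNNNGAA. One of its targets, Socs3, shuts the receptor off. Each has been linked to regrowth of sensory axons, so the direct comparison asks which transcripts depend on one factor more than on the other.

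The siJun libraries held 4222035 to 5873874 expected counts and the siStat3 libraries 3854725 to 5083837. Of 34183 genes, 13269 passed the filter on low counts and were tested. Levels are in CPM, that is, counts relative to the scaled total of the library, after scaling the 12 siJun, siStat3 and siCONTROL libraries together. Pan-neuronal markers, among them the pan-neuronal tubulin gene Tubb3, summed to 11290 to 13480 CPM in siJun and 11880 to 14740 CPM in siStat3, and markers of Schwann cells, the glia that wrap axons, to 1189 to 1445 and 1447 to 1679 CPM, so glial transcripts were present too. In such bulk samples, fewer cells of a type and less RNA per cell cannot be told apart.

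Each targeted transcript was far lower in its own group than in the other. Jun stood at 101, 91.3, 81.3 and 80.5 CPM in the siJun libraries against 259.7, 272, 234 and 263 CPM in siStat3 (log2 difference -1.53 ± 0.09 SE, adjusted p = 6.85e-06). Stat3 stood at 309.6, 324, 302 and 309 CPM in siJun against 56.2, 50.3, 49.8 and 32.3 CPM in siStat3 (log2 difference 2.73 ± 0.14 SE, adjusted p = 3.35e-06). The groups did not overlap for either gene. In siCONTROL, Jun was at 298 ± 18.97 CPM and Stat3 at 272 ± 11.9 CPM (mean ± SD, n = 4); every siCONTROL library lay above all siStat3 libraries for Jun and below all siJun libraries for Stat3. Log2 differences are siJun minus siStat3, so a negative value means a lower level in siJun.

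**Figure D1:**
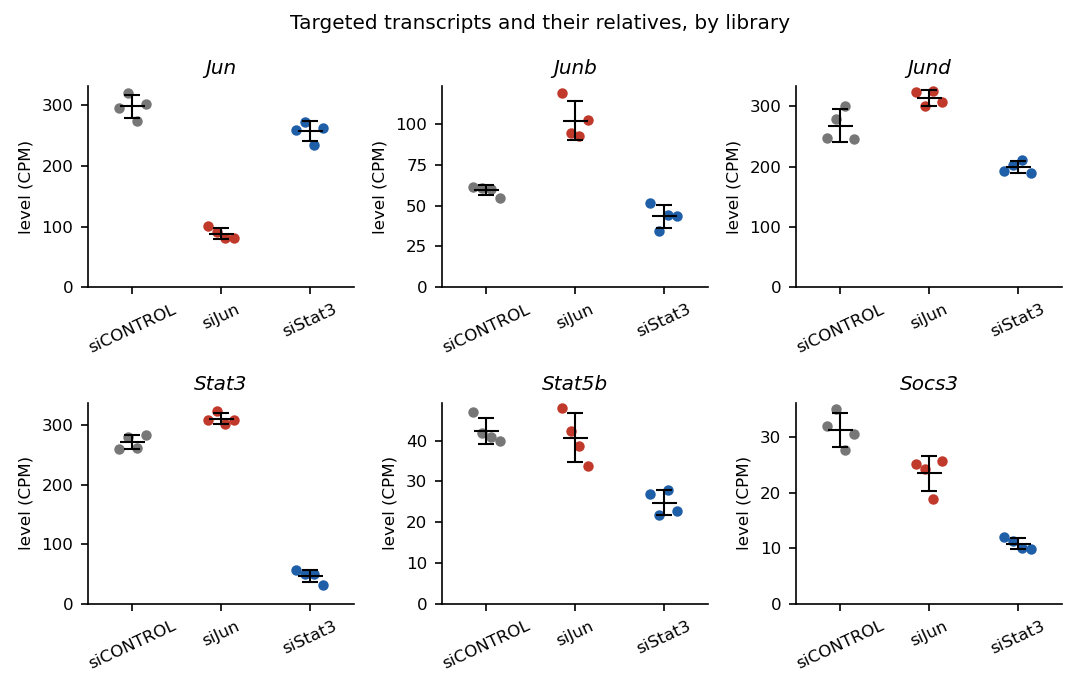
Level (CPM, vertical axis from 0) of the 2 targeted genes and 4 relatives in the 4 libraries of siCONTROL, siJun and siStat3; points are libraries, bars the mean ± SD. Jun is lowest in the siJun libraries and Stat3 in the siStat3 libraries, and Junb and Jund are above siStat3 in all 4 siJun libraries.

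The other Jun family genes differed in the opposite direction to Jun. Junb, which competes with Jun in AP-1 dimers and is also a Stat3 target, was at 119, 94.1, 92.8 and 102 CPM in siJun and 51.5, 34.2, 44.4 and 43.5 CPM in siStat3, 2.35-fold apart (adjusted p = 0.000305). The siCONTROL mean of 59.3 CPM lay between the groups. Jund, the constitutively expressed family member, was at 324, 299.9, 326 and 307 CPM against 193, 203, 212 and 190.3 CPM (1.58-fold, adjusted p = 0.00021), again with siCONTROL (268 CPM) between. The other 8 AP-1 family members tested did not pass: Fos (adjusted p = 0.381), Fosl1 (adjusted p = 0.261), Fosl2 (adjusted p = 0.712) and the injury-induced Atf3, at 1055 ± 88.9 against 985 ± 72.9 CPM (adjusted p = 0.546), were among them. With 11 members tested, 3 (27.3%) passed, where 7.11% of all genes did, but Jun itself is 1 of the 3.

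Among the 14 JAK and STAT genes tested, 2 were higher in siJun (median log2 difference of the list 0.19). Besides Stat3, Stat5b was lower in siStat3: 26.9, 21.8, 27.9 and 22.6 CPM against 48.04, 42.3, 38.6 and 33.8 CPM in siJun (adjusted p = 0.0106), with siCONTROL at 42.4 ± 3.17 CPM. Stat5b and Stat5a lie near Stat3 on the same chromosome in the RefSeq annotation, and any part of that position in the Stat5b difference was not tested. Stat5a, at 5.13, 4.74, 4.505 and 4.04 CPM in siStat3 and 10.4, 7.71, 5.32 and 6.91 CPM in siJun, did not pass (adjusted p = 0.121). Stat2, a transducer of interferon signals, was higher in siStat3 on average (87.3 against 47.4 CPM) without passing (adjusted p = 0.0631); its adjusted p was 0.00655 with DESeq2, 0.0358 in the fit of all 8 siRNA groups, 0.0413 without siStat3 replicate 1 and 0.0253 without siStat3 replicate 2, and reached 0.153 without another single library. Of the other genes targeted in the series, Atf3, Atf4, Klf6, Rest and Alyref, with the Atf4 partner Cebpg, none passed in this comparison, with adjusted p from 0.427 to 0.938.

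Across the transcriptome, 417 genes were higher in siJun (3.14% of those tested) and 526 higher in siStat3 (3.96%) at an adjusted p under 0.05. At least 2-fold apart were 94 (0.708%) and 154 (1.16%). All 4 siJun libraries lay above all 4 siStat3 libraries for 931 genes (7.02%), and all siStat3 above all siJun for 1026 (7.73%). The fit of all 8 siRNA groups together, which estimates the spread from 32 libraries, gave 675 and 803. Without siJun replicate 1, 277 were higher in siJun, and without siJun replicate 3, 336 were higher in siStat3.

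**Figure D2:**
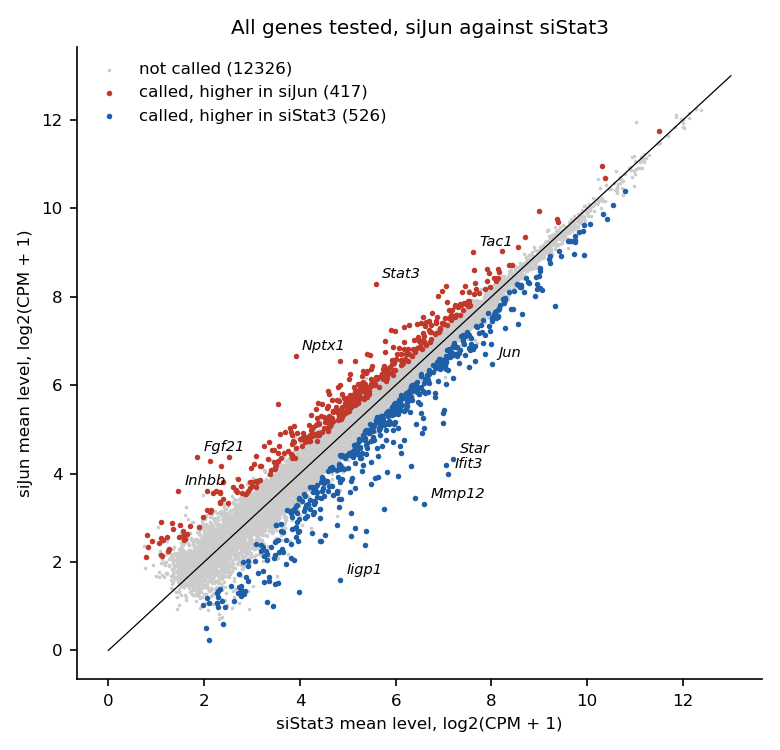
Mean level of each tested gene in the 4 siStat3 libraries (horizontal axis) against the 4 siJun libraries (vertical axis), both as log2(CPM + 1); the line marks equal levels. The 417 genes higher in siJun lie above the line and the 526 higher in siStat3 below it, with Stat3 and Jun at opposite sides.

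For each of these genes the siCONTROL mean was placed against the means of both groups. Of the 526 genes higher in siStat3, siCONTROL lay between the groups and nearer siStat3 for 279, between and nearer siJun for 102, above both for 94 and below both for 51. Of the 417 higher in siJun, it lay nearer siStat3 for 175, nearer siJun for 142, below both for 60 and above both for 40. These positions are of the mean log2 CPM over 4 libraries, with no test. They rank the means and do not show which group departed from siCONTROL.

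Known targets of Stat3 that passed were, with 1 exception, higher in siJun than in siStat3. That direction alone does not show which group lay away from siCONTROL. Of 23 genes on the list tested, 11 passed in this direction and 1 in the other, with a median log2 difference of 0.59 where the median over all genes was -0.00059. Leaving out siStat3 replicate 4 reduced the 11 to 7. Socs3, the feedback inhibitor of gp130 signalling, named after its values were seen, was at 12.1, 11.3, 10.1 and 9.86 CPM in siStat3 and 25.2, 24.3, 18.9 and 25.8 CPM in siJun (log2 difference 1.12 ± 0.15 SE, adjusted p = 0.00115), and both groups lay below the siCONTROL mean of 31.3 CPM. Osmr, the receptor subunit for oncostatin M, was at 17.04, 19.7, 21.2 and 19.5 against 40.04, 37.8, 35.2 and 35.1 CPM (1.92-fold, adjusted p = 0.000549). The kinase gene Pim3 (1.87-fold, adjusted p = 0.000409), the acute-phase protease inhibitor Serpina3n (1.71-fold, adjusted p = 0.000842) and the metalloproteinase inhibitor Timp1 (2.15-fold, adjusted p = 0.0126) shared that direction. Against siCONTROL these genes differed. For Osmr, siCONTROL lay between the groups with no overlap. For Pim3 the siStat3 libraries lay below siCONTROL and the siJun libraries overlapped it. For Serpina3n the siStat3 libraries overlapped siCONTROL and all siJun libraries lay above it, and for Timp1 both groups overlapped it. Pim1, a sister kinase of Pim3, was that exception, at 85.2, 86.8, 92.6 and 91.7 CPM in siStat3 and 56.9, 49.98, 57.3 and 56.2 CPM in siJun (adjusted p = 0.000512).

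Sbno2, a corepressor gene induced by Stat3 in other cells, was named after its values were seen, for its small p. It stood at 34.9, 38.9, 32.2 and 32.5 CPM in siStat3, at 95.4, 94.4, 91.1 and 87.6 CPM in siJun and at 88.3, 91.3, 87.9 and 81.2 CPM in siCONTROL (log2 difference 1.42 ± 0.09 SE, adjusted p = 9.39e-06). The siJun and siCONTROL libraries overlapped, and every siStat3 library lay far below them. Its RefSeq promoter (GRCm38.p6, 250 bases before to 50 after one of its annotated starts) is shown because it holds a word of the form TTCNNNGAA, in capitals, shortly before the start. The window is printed 5′ to 3′ in the direction of transcription.
Sbno2, chr10:80101138-80101437, minus strand: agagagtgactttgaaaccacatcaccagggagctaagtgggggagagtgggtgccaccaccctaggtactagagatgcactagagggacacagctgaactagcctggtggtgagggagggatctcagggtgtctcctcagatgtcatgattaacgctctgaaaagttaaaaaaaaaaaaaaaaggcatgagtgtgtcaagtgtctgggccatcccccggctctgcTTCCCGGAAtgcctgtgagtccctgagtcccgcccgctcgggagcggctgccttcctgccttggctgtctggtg

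Of the gp130 ligands and receptors, 2 of 12 tested were higher in siJun and 0 in siStat3 (16.7% in all, median log2 difference -0.16; for siJun, 1 in the fit of all 8 siRNA groups). The cytokine Il6 itself was scarce in every library but higher in siJun, at 5.79, 4.67, 3.601 and 4.67 CPM against 1.85, 1.58, 0.4505 and 0.897 CPM (adjusted p = 0.0135; 0.0715 in the fit of all 8 siRNA groups). Its siCONTROL libraries, at 1.497, 1.705, 1.701 and 0.928 CPM, overlapped siStat3 and not siJun.

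Interferon-stimulated genes had the median furthest from 0 of the 33 lists, and all that passed were higher in siStat3. The lists were chosen with earlier results of these data known, so their ranking is a description and not a test. Of 28 tested, 17 were higher in siStat3 and 0 in siJun (60.7% against 7.11% of all genes), with a median log2 difference of -1.59. Iigp1, an interferon-inducible GTPase of cell-autonomous immunity that is not on the list, was at 24.8, 29.99, 19.8 and 36.3 CPM in siStat3 against 1.87, 1.87, 1.54 and 2.801 CPM in siJun and 0.299, 1.705, 1.19 and 2.09 CPM in siCONTROL (log2 difference -3.76 ± 0.25 SE, adjusted p = 1.46e-05). The antiviral gene Ifit3 was at 75.5, 57.9, 179 and 233 CPM against 14.1, 8.87, 8.75 and 27.5 CPM (9.13-fold, adjusted p = 0.00268), and siCONTROL at 11.7 ± 1.55 CPM. Rsad2, which encodes viperin, was at 68.1, 94.7, 123 and 238 against 19.6, 14.01, 15.9 and 20.2 CPM (7.44-fold, adjusted p = 0.000636). Every siStat3 library stood above all siJun and siCONTROL libraries for these 3 genes, and for 15 of the 17 list members that passed. As the 17 were picked by their difference between siJun and siStat3, separation from siJun follows in part from that choice. Among all genes tested, every siStat3 library lay above every siJun library for 7.73%, a count that leaves siCONTROL out.

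The size of the difference varied between siStat3 libraries. Replicates 3 and 4 were both above replicates 1 and 2 for 17 of the 17 genes that passed. How often that order occurred among all genes tested was not counted. Ifit1 was at 36.9, 34.99, 108 and 156 CPM in siStat3 replicates 1 to 4, against 10.7, 7.47, 5.14 and 16.1 CPM in siJun. The ubiquitin-like modifier Isg15, named after its values were seen, was at 42.7, 32.4, 98.7 and 143 CPM in siStat3 against 15.3, 10.7, 16.3 and 25.96 CPM in siJun. The groups did not overlap for either gene. Summed over the 28 tested genes, the siStat3 libraries held 1458, 1205, 2322 and 2919 CPM, the siJun libraries 977, 798, 807 and 1012 CPM and the siCONTROL libraries 771, 696, 861 and 709 CPM. The number of list members higher in siStat3 ranged from 14 to 23 when single libraries were left out. Among the 5 other knockdowns the highest group mean of Ifit3 was 116 CPM, in siKlf6, whose libraries spanned 23.7 to 288 CPM. For Ifit1 the siKlf6 mean of 88.1 CPM (20.9 to 228 CPM) was above the siStat3 mean of 84.2 CPM on the scale of all 32 siRNA libraries. For Ifi211 these means were 9.32 and 9.79 CPM. For Iigp1 the highest mean among the other knockdowns was 5.83 CPM, also in siKlf6, with no library above 11.9 CPM.

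**Figure D3:**
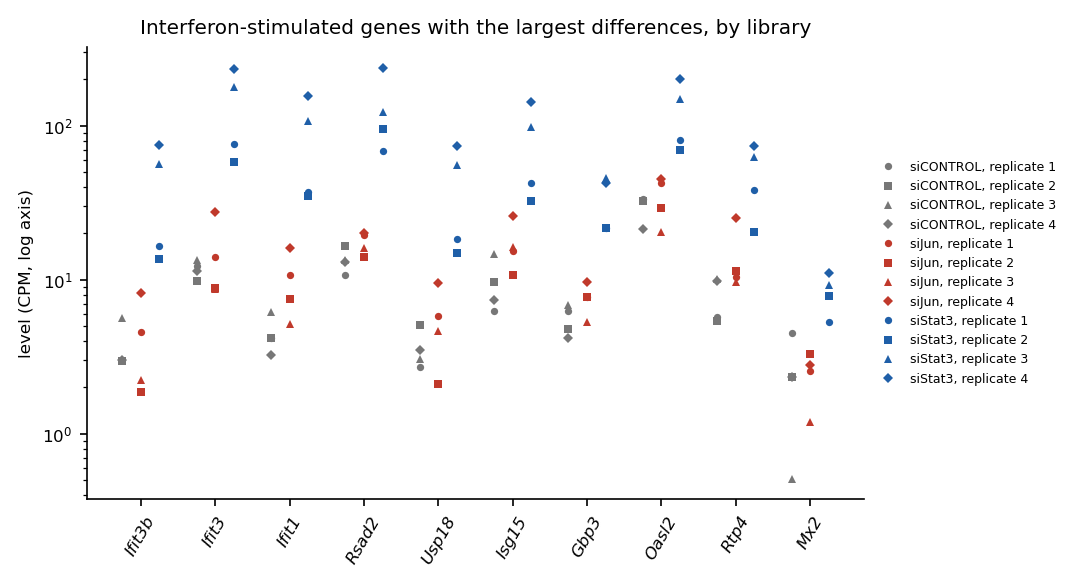
Level (CPM, log axis) of the 10 interferon-stimulated genes with the largest differences among those that passed the threshold, in each library of siCONTROL (grey), siJun (red) and siStat3 (blue); the symbol gives the replicate number. The siStat3 points lie above all others for 9 of the 10 genes, and siStat3 replicates 3 and 4 above replicates 1 and 2 for 10 of them.

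Other genes of the same kind were among the largest differences in the comparison: the nucleotide kinase Cmpk2 (5.83-fold higher in siStat3, adjusted p = 0.00156), the DNA-sensor relative Ifi211 (9.37-fold, adjusted p = 0.000254), the apolipoprotein Apol9a (6.52-fold, adjusted p = 0.00059) and the ISG15 protease Usp18 (7.23-fold, adjusted p = 0.00962). Of class I antigen presentation genes, 0 of 13 tested were higher in siJun and 4 in siStat3 (30.8% in all, median log2 difference -0.48). The peptide transporter Tap1 was at 28.7, 17.6, 27.03 and 35.2 CPM in siStat3 and 11.2, 7.24, 9.43 and 10.8 CPM in siJun (adjusted p = 0.00207), and it kept its call without any 1 library. For siStat3 the count of 4 became 1 without any 1 of siJun replicates 1 and 3 or siStat3 replicates 3 and 4, and 2 without any 1 of siJun replicates 2 and 4. Tmem173, which encodes the DNA-sensing adaptor STING upstream of interferon, went the opposite way, at 36.6, 69.4, 37.6 and 41.6 CPM in siJun against 8.62, 13.4, 7.88 and 12.3 CPM in siStat3 (log2 difference 2.14 ± 0.25 SE, adjusted p = 0.000497) and 22.4, 19.5, 6.46 and 14.4 CPM in siCONTROL.

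Many interferon-responsive genes carry the interferon-stimulated response element (GAAA, any 2 bases, GAAA), and the promoter of Ifit1 is shown as an example (RefSeq, GRCm38.p6, 5′ to 3′; in capitals both matches, which read as the reverse complement).
Ifit1, chr19:34640639-34640938, plus strand: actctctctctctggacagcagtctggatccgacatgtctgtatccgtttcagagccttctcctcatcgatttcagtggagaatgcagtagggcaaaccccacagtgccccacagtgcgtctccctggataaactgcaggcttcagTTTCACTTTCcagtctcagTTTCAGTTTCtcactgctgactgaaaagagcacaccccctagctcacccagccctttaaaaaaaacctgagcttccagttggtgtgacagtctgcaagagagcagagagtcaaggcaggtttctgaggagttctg
In these windows of 300 bases the element, searched on both strands, was present in 14 of 20 (70%) of the interferon-stimulated list, in 24 of 115 (20.9%) of genes at least 2-fold higher in siStat3, in 2 of 67 (2.99%) of those at least 2-fold higher in siJun, and in 364 of 10123 (3.6%) of all genes tested. The element was chosen after the values were seen, so these shares describe the sets and do not test them.

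Several genes of matrix breakdown were lower in siJun than in siStat3. Mmp12, the macrophage metalloelastase, gave the smallest adjusted p of all genes: 9.37, 8.64, 8.92 and 8.59 CPM in siJun, 89.5, 96.6, 108 and 88.3 CPM in siStat3 and 35.3, 23.6, 38.6 and 25.8 CPM in siCONTROL (log2 difference -3.42 ± 0.11 SE, adjusted p = 5.05e-08). The 3 groups did not overlap, with siCONTROL between. Star, the mitochondrial cholesterol carrier of steroid synthesis, had the same order, at 18.7, 25.2, 14.4 and 17.6 CPM in siJun, 163, 165, 138 and 121 CPM in siStat3 and 66.2, 104, 41.5 and 68.9 CPM in siCONTROL (log2 difference -2.96 ± 0.16 SE, adjusted p = 4.55e-06). Of the 27 genes of integrins, matrix and proteolysis tested, 7 were higher in siStat3 and 1, Timp1, in siJun (median -0.09). Plaur, the urokinase receptor, was at 173, 157, 151 and 138 CPM in siJun against 345, 319, 293 and 278 CPM (1.99-fold, adjusted p = 0.000134). Itga5, the fibronectin receptor subunit, was at 24.8 against 41.1 CPM (adjusted p = 0.00258). The macrophage marker Cd68 moved with Mmp12, at 29.8, 27.6, 17.8 and 18.9 CPM in siJun and 47.2, 63.9, 41.9 and 52.01 CPM in siStat3 (adjusted p = 0.0046). The defining macrophage markers C1qa and Ptprc were at 0 in all but 1 and all but 2 of the 12 libraries, and Adgre1 stayed at or below 0.511 CPM. The whole macrophage list of 10 genes summed to 23.5 to 34.8 CPM in siJun, 48.2 to 71.6 in siStat3 and 28.4 to 47.3 in siCONTROL, mostly Cd68, and its part in the Mmp12 difference was not tested.

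Regeneration-associated genes, which injured sensory neurons induce as their axons regrow, passed in 11 of 30 with siStat3 higher and 4 with siJun higher, both targets included (median -0.26). On the siJun side, 4 became 2 without any 1 of siJun replicates 1, 2, 3 and 4 or siStat3 replicates 1, 2 and 3. Stmn4, a stathmin that regulates microtubule dynamics, was at 299, 288, 285 and 266 CPM in siJun and 585, 526, 491 and 521 CPM in siStat3 (log2 difference -0.90 ± 0.07 SE, adjusted p = 6.72e-05), with siCONTROL at 476 ± 29.5 CPM. Sprr1a, whose proline-rich product appears in regrowing axons, was lower than siCONTROL in both groups and lower still in siJun: 129, 128, 94.8 and 92.6 CPM in siJun, 219, 198, 177 and 189 CPM in siStat3 and 362, 385, 303 and 272 CPM in siCONTROL (log2 difference -0.81 ± 0.13 SE, adjusted p = 0.00286 between the knockdowns). The orphan receptor Gpr151 had the reverse order, at 64.6, 64.7, 66.9 and 63.5 CPM in siJun and 42.5, 42.1, 31.98 and 36.99 CPM in siStat3 (adjusted p = 0.00124), with siCONTROL at 83.3 ± 4.68 CPM.

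Of growth cone and cytoskeleton genes, 1 of 27 tested was higher in siJun and 4 in siStat3 (18.5% in all, median log2 difference -0.16). For siStat3 the count of 4 became 7 in the fit of all 8 siRNA groups, and 12 with a replicate block. The beta tubulins Tubb2a (867 ± 76 against 1358 ± 89.1 CPM, adjusted p = 0.000884) and Tubb6 (104 ± 9.02 against 148 ± 13.02 CPM, adjusted p = 0.00761) were lower in siJun. Mapt, which encodes the microtubule protein tau, was higher in siJun (207 ± 19.3 against 138 ± 13.5 CPM, adjusted p = 0.00306). Of the DLK and JNK genes, 0 of 19 tested were higher in siJun and 4 in siStat3 (21.1% in all, median log2 difference -0.01). The 4 that passed encode phosphatases that switch MAP kinases off. Dusp5 was at 20.6, 24.8, 21.9 and 28.01 CPM in siJun and 61.6, 67.9, 62.8 and 77.1 CPM in siStat3 (2.82-fold, adjusted p = 6.72e-05). Dusp10, which acts on JNK and p38, was at 13.96 against 32.8 CPM (adjusted p = 0.000738), and Dusp1 at 140.0 against 234 CPM (adjusted p = 0.000183). Dusp4 passed narrowly (adjusted p = 0.0498) and lost its call when any 1 of the 8 libraries was left out, with adjusted p from 0.0505 to 0.122.

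The promoters of Mmp12, Plaur and Sprr1a each hold the AP-1 letters TGANTCA, in capitals below, and are shown for that reason (RefSeq, GRCm38.p6, 250 bases before to 50 after the start, 5′ to 3′ in the direction of transcription).
Mmp12, chr9:7347124-7347423, plus strand: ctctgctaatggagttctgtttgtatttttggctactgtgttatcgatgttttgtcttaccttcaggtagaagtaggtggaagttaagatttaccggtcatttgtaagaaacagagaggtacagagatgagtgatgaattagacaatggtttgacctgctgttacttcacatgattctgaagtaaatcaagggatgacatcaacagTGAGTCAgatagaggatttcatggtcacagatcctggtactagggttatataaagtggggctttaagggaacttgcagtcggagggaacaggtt
Plaur, chr7:24462233-24462532, plus strand: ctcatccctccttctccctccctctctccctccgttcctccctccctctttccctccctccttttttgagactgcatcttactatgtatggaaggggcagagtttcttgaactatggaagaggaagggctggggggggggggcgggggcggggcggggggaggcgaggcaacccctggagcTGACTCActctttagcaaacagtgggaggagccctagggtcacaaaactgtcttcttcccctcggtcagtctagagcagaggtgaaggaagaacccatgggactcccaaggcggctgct
Sprr1a, chr3:92485832-92486131, minus strand: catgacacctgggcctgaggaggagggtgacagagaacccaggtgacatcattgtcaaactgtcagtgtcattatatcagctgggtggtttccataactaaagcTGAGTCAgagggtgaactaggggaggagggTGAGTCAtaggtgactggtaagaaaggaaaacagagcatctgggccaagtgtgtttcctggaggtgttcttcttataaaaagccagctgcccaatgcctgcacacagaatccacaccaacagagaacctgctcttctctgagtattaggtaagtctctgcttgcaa
The word TGANTCA is its own reverse complement, so one pass covers both strands. It cannot overlap the cAMP response element TGACGTCA, but can overlap the other words searched. It occurred in 31 of 115 (27%) of promoters of genes at least 2-fold higher in siStat3, in 7 of 67 (10.4%) of those at least 2-fold higher in siJun and in 638 of 10123 (6.3%) of all genes tested. Without promoters that hold the interferon element, the first and the last of these shares were 20 of 91 (22%) and 595 of 9759 (6.1%). By siCONTROL level, the share was 11 of 62 (17.7%) where siCONTROL was nearer siStat3 or above both groups, and 20 of 53 (37.7%) where it was nearer siJun or below both. The same sets held the interferon element in 4 of 62 (6.45%) and 20 of 53 (37.7%). The interferon-stimulated list itself held TGANTCA in 7 of 20 (35%). This split was not repeated without promoters that hold the interferon element. The word TTCNNNGAA, also its own reverse complement, occurred in 10 of 67 (14.9%) of genes at least 2-fold higher in siJun, 10 of 115 (8.7%) of those at least 2-fold higher in siStat3 and 814 of 10123 (8.04%) of all genes. TGACGTCA occurred in 2 of 67 (2.99%), 0 of 115 (0%) and 372 of 10123 (3.67%) in the same order. With no fold limit, TTCNNNGAA occurred in 34 of 329 (10.3%) of genes called higher in siJun and 38 of 412 (9.22%) in siStat3. In the split by siCONTROL level above, TTCNNNGAA occurred in 2 of 62 (3.23%) and 8 of 53 (15.1%), in the order given there. A match is a description of the letters and not a binding site.

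The genes of both activin subunits differed, in opposite directions. Inhba, the subunit of activin A, was at 16.2, 18.2, 15.6 and 11.95 CPM in siJun against 42.7, 72.9, 55.9 and 50.9 CPM in siStat3 (log2 difference -1.84 ± 0.18 SE, adjusted p = 0.000179), and siCONTROL was at 60.9 ± 11.3 CPM. Inhbb, the subunit of activin B, was at 14.1, 13.8, 7.202 and 9.52 CPM in siJun against 2.87, 2.105, 0.4505 and 1.57 CPM in siStat3 (log2 difference 2.65 ± 0.41 SE, adjusted p = 0.00273), and siCONTROL was at 10.9 ± 3.32 CPM. The siJun libraries lay below siCONTROL for Inhba and overlapped it for Inhbb, and the siStat3 libraries overlapped it for Inhba and lay below it for Inhbb. Of the 25 genes of this pathway tested, the others that passed, the activin-binding Fst (adjusted p = 0.0474) and the BMP target Id2 (adjusted p = 0.0429), did so narrowly. On the siJun side, 3 became 1 with no filter on low counts and without any 1 of siJun replicates 1, 2 and 3 or siStat3 replicates 1, 2 and 4. Fst lost its call with the replicate number as a block (adjusted p = 0.0685) and without any 1 of the 8 libraries (adjusted p up to 0.124), and Id2 with DESeq2 (0.0553) and without any 1 of siJun replicates 1, 2 and 3 or siStat3 replicates 1, 2 and 4 (up to 0.116).

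**Figure D4:**
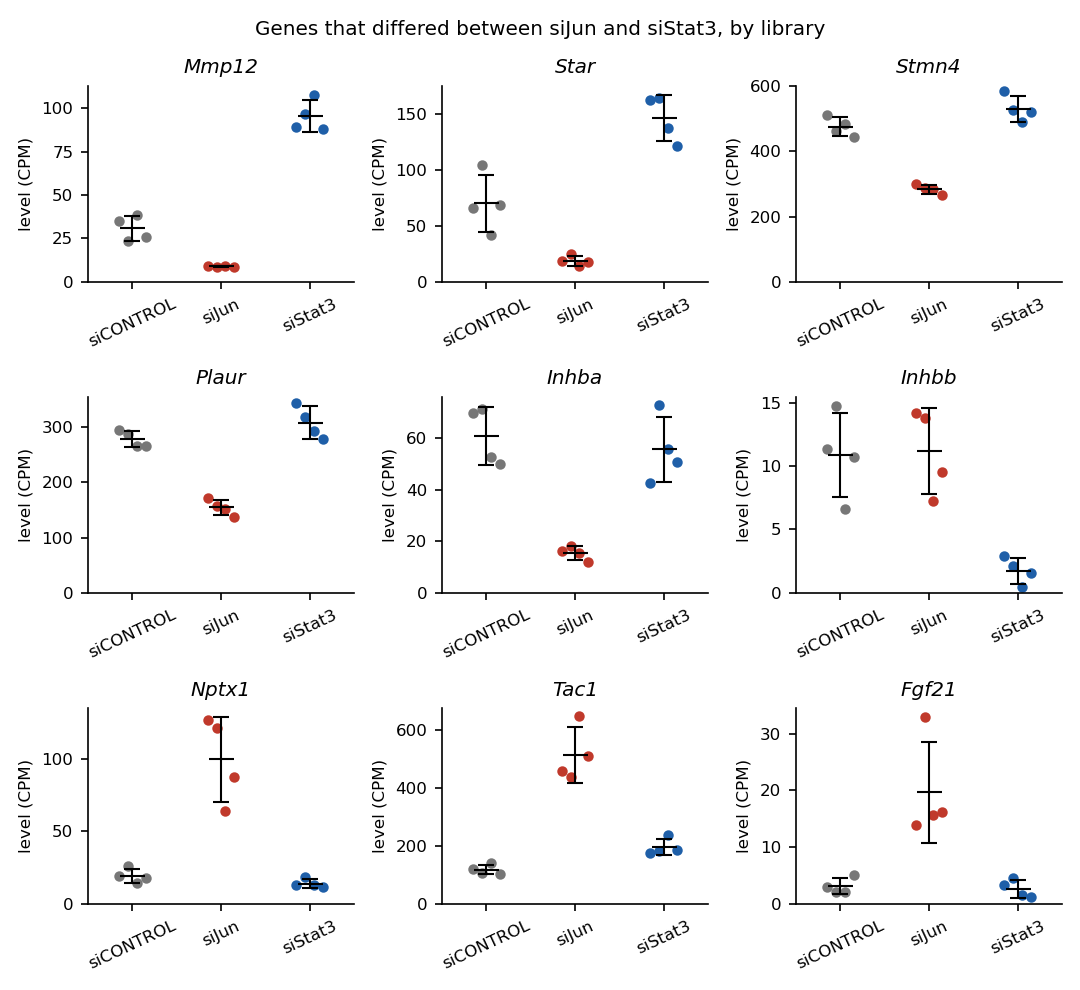
Level (CPM, vertical axes from 0) of 9 genes with clear differences, by library in siCONTROL, siJun and siStat3; points are libraries, bars the mean ± SD. Mmp12, Star, Stmn4, Plaur and Inhba are lower in all 4 siJun libraries than in any siStat3 library, and Inhbb, Nptx1, Tac1 and Fgf21 are higher.

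Genes of the nociceptor, the pain-sensing neuron, differed in both directions. Tac1, the precursor of substance P, was at 457, 437, 648 and 511 CPM in siJun and 175, 181, 236 and 186 CPM in siStat3 (log2 difference 1.40 ± 0.13 SE, adjusted p = 0.000158), and both groups were above siCONTROL (118 ± 16.96 CPM). The sodium channels Scn10a (128 ± 5.43 against 82.9 ± 11.9 CPM, adjusted p = 0.00306) and Scn11a (35.96 ± 2.102 against 22.6 ± 2.42 CPM, adjusted p = 0.00407) were also higher in siJun. Ret, the receptor of GDNF family ligands (347 ± 44.2 against 485 ± 60.6 CPM, adjusted p = 0.0245), and Calcb, a CGRP precursor (609 ± 49.2 against 776 ± 61.6 CPM, adjusted p = 0.0281), were higher in siStat3. Ret lost its call without any 1 of siJun replicates 1, 3 and 4 or siStat3 replicates 2 and 4 (adjusted p up to 0.07), and Calcb without any 1 of siJun replicates 2, 3 and 4 or siStat3 replicates 1, 2 and 3 (up to 0.074). Over the whole list of nociceptor markers, 4 of 21 tested were higher in siJun and 2 in siStat3 (28.6% in all, median log2 difference 0.16; for siStat3, 0 to 1 without single libraries, 1 with no filter on low counts). Of large-diameter neuron markers, 2 of 15 tested were higher in siJun and 0 in siStat3 (13.3% in all, median log2 difference 0.07; for siStat3, 0 to 1 without single libraries, 2 with a replicate block, 1 with DESeq2). Of 38 voltage-gated ion channel genes, which include Scn10a and Scn11a, 9 were higher in siJun and 2 in siStat3 (median log2 difference 0.14; for siStat3, 1 to 2 without single libraries, 1 with no filter on low counts). The A-type potassium channel Kcnd1 was at 48.04, 54.9, 43.9 and 51.5 CPM in siJun and 24.2, 28.4, 22.5 and 22.6 CPM in siStat3 (adjusted p = 0.000421), and Cacna2d1, the gabapentin-binding calcium channel subunit, at 169 against 114 CPM (adjusted p = 0.00225).

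Synaptic and peptide genes differed in both directions. Nptx1, a pentraxin that clusters glutamate receptors at synapses, was at 127, 121, 64.1 and 87.97 CPM in siJun and 13.1, 18.4, 12.8 and 11.7 CPM in siStat3 (log2 difference 2.85 ± 0.23 SE, adjusted p = 6.72e-05), with siCONTROL at 19.5, 26.03, 14.6 and 17.9 CPM overlapping siStat3. Syt9, a calcium sensor of vesicle release, was 1.45-fold higher in siJun (adjusted p = 0.00475), while the vesicle phosphoprotein Syn1 was 1.35-fold higher in siStat3 (adjusted p = 0.00157). Of the synaptic vesicle list, 5 of 25 tested were higher in siJun and 2 in siStat3 (28% in all, median log2 difference -0.03; for siStat3, 1 to 2 without single libraries, 1 with no filter on low counts, 7 with a replicate block, 4 with DESeq2). On the siJun side, 5 became 2 without any 1 of siJun replicates 1 and 2 or siStat3 replicates 3 and 4, and 3 without any 1 of siJun replicate 4 or siStat3 replicate 1. Of neuropeptides, granins and their processing enzymes, 2 of 24 tested were higher in siJun and 6 in siStat3 (33.3% in all, median log2 difference -0.15; for siJun, 5 with a replicate block). The prohormone convertase Pcsk2 was 1.69-fold higher in siJun (adjusted p = 0.00222), and the granin Scg2 was 1.37-fold higher in siStat3 (855 ± 59.4 against 624 ± 59.8 CPM, adjusted p = 0.00989), as was neurotensin, Nts (1.37-fold, adjusted p = 0.0131). For siStat3 the count of 6 became 2 with no filter on low counts and without any 1 of siJun replicate 4 or siStat3 replicates 1 and 3, and 3 without any 1 of siJun replicates 2 and 3 or siStat3 replicate 2.

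Receptor genes were among the largest differences in favour of siJun. S1pr3, a sphingosine 1-phosphate receptor, was at 91.7, 94.1, 89.2 and 92.3 CPM in siJun, 23.6, 28.9, 30.2 and 27.3 CPM in siStat3 and 26.6, 31.8, 29.3 and 34.6 CPM in siCONTROL (log2 difference 1.74 ± 0.09 SE, adjusted p = 4.55e-06). Npy1r, the neuropeptide Y receptor of peptidergic sensory neurons, was 4.23-fold higher in siJun (19.9 ± 2.84 against 4.72 ± 0.723 CPM, adjusted p = 7.19e-05) and Cckar, a cholecystokinin receptor, 3.54-fold (adjusted p = 0.00788). Fgf21, a secreted stress hormone, was at 13.97, 32.9, 15.6 and 16.2 CPM in siJun against 3.28, 4.47, 1.58 and 1.12 CPM in siStat3 (log2 difference 2.91 ± 0.41 SE, adjusted p = 0.00158), and siCONTROL at 3.08 ± 1.42 CPM. The potassium channel modifier Kcnv1 (4.04-fold, adjusted p = 0.00124), the cell cycle phosphatase Cdkn3 (5.399-fold, adjusted p = 0.000377), Cacng5 (5.51-fold), Grxcr2 (3.68-fold), the noncoding Kirrel3os (6.73-fold), Atp6ap1l (3.33-fold) and the transporter Slc10a6 (3.08-fold) followed. Slc5a7, the choline transporter, was 4.11-fold higher (adjusted p = 0.0217) but lost its call without any 1 of 5 libraries, siJun replicates 2 and 3 and siStat3 replicates 1, 2 and 3 (adjusted p up to 0.0645).

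On the siStat3 side, a further large difference was Pilra, an inhibitory immune receptor (12.9, 18.2, 14.9 and 13.2 CPM in siStat3 against 1.19, 2.57, 0.514 and 1.68 CPM in siJun, adjusted p = 0.000238). With them stood Xirp2, an actin-binding repeat protein of muscle (7.95-fold, adjusted p = 0.000871), Yjefn3 (6.498-fold, adjusted p = 0.00178) and the imprinted Rtl1 (5.61-fold, adjusted p = 0.000238). For Pilra, Xirp2 and Yjefn3 the siCONTROL mean (8.95, 5.205 and 26.6 CPM) lay between the groups. Genes picked after their values were seen, for their small p, included Flnc, the actin cross-linker filamin C, at 16.2, 11.2, 13.5 and 16.2 CPM in siJun and 60.8, 64.7, 63.7 and 69.7 CPM in siStat3 (log2 difference -2.16 ± 0.13 SE, adjusted p = 6.20e-06). The same choice gave the ER protein Sdf2l1 (2.14-fold higher in siStat3, adjusted p = 1.46e-05), the ubiquitin-conjugating enzyme Ube2g2 (2.06-fold, adjusted p = 6.72e-05), the spectrin partner Add1 (1.85-fold, adjusted p = 6.72e-05) and Fam171b (2.16-fold, adjusted p = 4.11e-05). Higher in siJun by the same choice was the glycosyltransferase Gcnt2, at 139, 133, 129 and 126 CPM in siStat3 against 328, 279, 315 and 285 CPM (adjusted p = 9.39e-06), with siCONTROL at 264 ± 9.898 CPM. It was joined by the carboxypeptidase Scpep1 (2.25-fold, adjusted p = 3.67e-05), Atrnl1 (2.51-fold, adjusted p = 1.74e-05), the oxysterol-binding protein Osbpl3 (1.99-fold, adjusted p = 6.72e-05) and Trarg1 (1.67-fold, adjusted p = 7.19e-05).

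**Figure D5:**
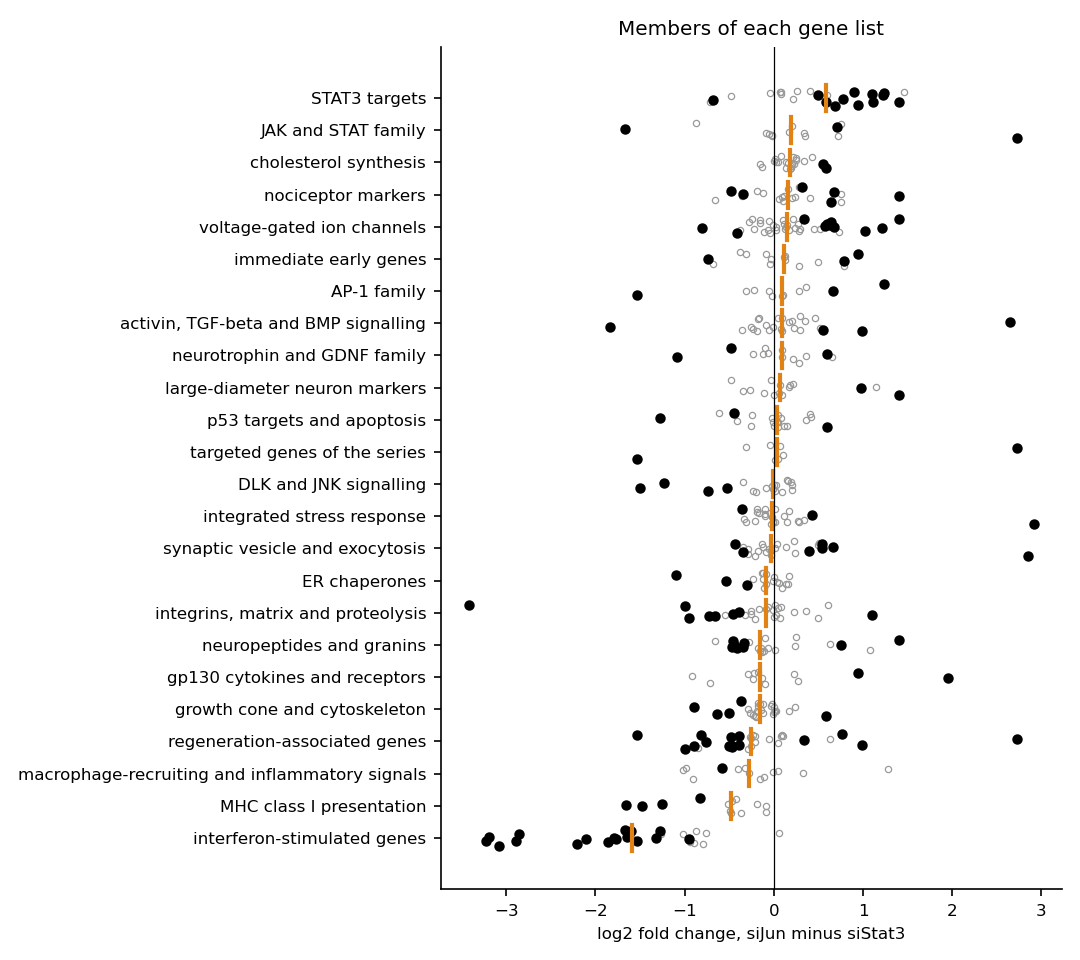
log2 difference (siJun minus siStat3, horizontal axis) of each tested member of 24 gene lists, ordered by median; filled points passed the threshold, open points did not, and the orange bar is the median. Interferon-stimulated genes lie lowest and STAT3 targets highest, with medians of -1.59 and 0.59.

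In the remaining lists 1 to 3 members passed, a share of 7.69% to 23.1%, where 7.11% of all genes did. The lowest shares, for inflammatory signals (7.69%) and cholesterol synthesis (9.09%), were near that of all genes. Such small lists do not separate them from it. Each of the 8 libraries, when left out, moved at least 1 of the counts. Of integrated stress response genes, which Atf4 drives, 2 of 25 tested were higher in siJun and 1 in siStat3 (12% in all, median log2 difference -0.02; for siJun, 1 to 2 without single libraries; for siStat3, 0 to 1 without single libraries, 0 with no filter on low counts, 2 in the fit of all 8 siRNA groups, 2 with a replicate block). Of ER chaperones, which fold secreted proteins, 0 of 18 tested were higher in siJun and 3 in siStat3 (16.7% in all, median log2 difference -0.08). Of cholesterol synthesis enzymes, 2 of 22 tested were higher in siJun and 0 in siStat3 (9.09% in all, median log2 difference 0.19; for siJun, 1 to 2 without single libraries, 4 with a replicate block). Of p53 targets and apoptosis genes, 1 of 20 tested was higher in siJun and 2 in siStat3 (15% in all, median log2 difference 0.04; for siJun, 0 to 2 without single libraries, 2 in the fit of all 8 siRNA groups, 2 with DESeq2; for siStat3, 0 to 2 without single libraries). Of neurotrophin and GDNF family genes, which signal survival, 1 of 13 tested was higher in siJun and 2 in siStat3 (23.1% in all, median log2 difference 0.09; for siJun, 0 to 2 without single libraries, 2 with a replicate block; for siStat3, 0 to 2 without single libraries). Of inflammatory signals, 0 of 13 tested were higher in siJun and 1 in siStat3 (7.69% in all, median log2 difference -0.28; for siStat3, 0 to 1 without single libraries, 2 with a replicate block, 2 with DESeq2). Of immediate early genes, which respond to activity within minutes, 2 of 15 tested were higher in siJun and 1 in siStat3 (20% in all, median log2 difference 0.11). Egr1 was at 34.8, 33.6, 33.6 and 33.2 CPM in siJun against 18.7, 21.3, 15.99 and 22.9 CPM in siStat3 (adjusted p = 0.00299), and Ier3 was 1.92-fold higher in siJun (adjusted p = 0.000864).

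Cell type markers passed in some lists and not in others, read against 7.11% of all genes. Among pan-neuronal markers, 3 of 12 tested were higher in siJun and 1 in siStat3 (33.3% in all, median log2 difference 0.10; for siStat3, 1 to 2 without single libraries, 4 with a replicate block, 2 with DESeq2). The RNA-binding Elavl4 (1.75-fold, adjusted p = 0.00162) and Rbfox3 (1.59-fold, adjusted p = 0.00229) were higher in siJun and the dendritic Map2 (1.64-fold, adjusted p = 0.00523) higher in siStat3. Of 9 satellite glia markers tested, glutamine synthetase, Glul, passed, at 179, 175, 156 and 154 CPM in siJun against 402, 418, 306 and 379 CPM in siStat3 (adjusted p = 8.44e-05). The summed list, Glul included, was at 637 to 914 CPM in siJun and 894 to 1039 CPM in siStat3. The other 8 members did not pass, and the median log2 difference of the list was 0.05. The sum therefore does not show a shift shared by the list. Of 10 Schwann cell markers, the myelin gene Pmp22 passed (606 ± 49.8 against 862 ± 45.5 CPM, adjusted p = 0.0029). Without Pmp22 the other 10 Schwann cell markers summed to 588 to 801 CPM in siJun and 593 to 812 CPM in siStat3, and the groups overlapped. Fibroblast markers had 0 of 7, endothelial and mural markers 0 of 9, red cell markers 0 of 2 and mitochondrially encoded genes 0 of 13 past the threshold. Of 7 proliferation genes Cdk1 passed, higher in siStat3 (26.5, 8.42, 11.3 and 10.3 against 5.62, 4.67, 3.94 and 5.603 CPM, adjusted p = 0.0259), losing its call without any 1 siJun library (adjusted p up to 0.0764). The part of these shifts in the other results was not tested.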

How the data were processed

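Poly(A) RNA libraries were made with a stranded kit, per the labels' protocols. The authors deposited expected counts per gene. The submitters' processing notes name kallisto and GRCm39. For version, annotation release and scaling, the notes and labels say nothing (not given in the sources used here). Their scale per transcript length is not stated, so levels are compared only within a gene. All 36 columns of the table were matched to samples by library name, 0 were left unused and 0 pairs were identical. Symbols came from a supplied table of gene identifiers (32470 of 34183 identifiers), and promoters from RefSeq GRCm38.p6, matched by symbol for 10123 of the 13269 genes tested.

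Counts were rounded, filtered with filterByExpr, scaled by TMM and tested in the 8 libraries by edgeR 4.0.16 (R 4.3.3; quasi-likelihood F test), with Benjamini-Hochberg adjustment over all genes tested and a threshold of 0.05; SE is the log2 difference divided by the root of F. The test was checked on simulated counts. Deviations of same-numbered siJun and siStat3 libraries from their group means correlated at 0.125 to 0.18 and those of other pairs at -0.182 to 0.0761. The numbers may therefore pair the libraries, and a fit with the number as a block was run as an alternative. The labels do not say what a number shares. Unless stated otherwise, p-values, SE and counts come from the fit without the block, which called 943 genes against 1304 with it.

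The comparison, the gene lists (548 genes in 33 lists, 503 tested; Ddit3 was not matched) and the motifs were chosen with earlier results of these data known, and the interferon-stimulated response element after seeing the values. Named genes were the targets, the 15 largest differences in each direction with no overlap and a mean of at least 5 CPM in the higher group, up to 4 genes of each list in each direction by adjusted p, the AP-1, JAK and STAT families, the genes targeted in the series and, after seeing the values, the 10 smallest p in each direction, Socs3 and Isg15. Near-identical genes, such as Ifit3 and Ifit3b, can exchange reads.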

Additional observations from a re-analysis of the deposited data

Results flagged for a closer look

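In 15 of the 290 groups of 4 libraries behind the named genes, 1 library stood far from the others, by Dixon's test of the gap to its nearest neighbour; chance gives about 1 in 20. In siJun these were Fgf21 siJun replicate 2 at 32.93 CPM against 13.97 to 16.25 CPM in the other 3, Tmem173 siJun replicate 2 at 69.36 CPM against 36.63 to 41.65 CPM in the other 3, Pim3 siJun replicate 3 at 43.04 CPM against 50.91 to 51.73 CPM in the other 3, Pim1 siJun replicate 2 at 49.98 CPM against 56.22 to 57.27 CPM in the other 3, Scn10a siJun replicate 3 at 120.2 CPM against 130.4 to 131.5 CPM in the other 3, Scg2 siJun replicate 4 at 534.9 CPM against 645.4 to 665.8 CPM in the other 3, Nts siJun replicate 2 at 370.9 CPM against 447.3 to 460.7 CPM in the other 3, Syn1 siJun replicate 2 at 201.1 CPM against 210.7 to 212.6 CPM in the other 3, Tubb6 siJun replicate 3 at 90.54 CPM against 106.8 to 109.4 CPM in the other 3, Jdp2 siJun replicate 4 at 23.53 CPM against 17.15 to 17.98 CPM in the other 3 and Rest siJun replicate 1 at 6.644 CPM against 7.657 to 7.716 CPM in the other 3. In siStat3 they were Npy1r siStat3 replicate 2 at 5.788 CPM against 4.259 to 4.505 CPM in the other 3, Cacna2d1 siStat3 replicate 1 at 99.76 CPM against 117.3 to 120.8 CPM in the other 3, Cdk1 siStat3 replicate 1 at 26.48 CPM against 8.419 to 11.26 CPM in the other 3 and Cebpg siStat3 replicate 2 at 86.82 CPM against 45.57 to 52.23 CPM in the other 3.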

How the results depend on the processing

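Fitted over all 8 siRNA groups, 1478 genes passed instead of 943, 675 higher in siJun and 803 in siStat3, with 887 of the 943 calls kept in direction; this fit tested 14876 genes instead of 13269 and takes the spread from more libraries, and the part of each was not tested. With the replicate number as a block 1304 passed (897 kept), and of the named genes that had passed, only Fst (adjusted p = 0.0685) and Aldh18a1 (adjusted p = 0.0555) lost their call. DESeq2 gave 1169, its size factors in edgeR 946, and no filter on low counts 781. Leaving out 1 library left 638 to 774 genes, 277 to 359 higher in siJun and 336 to 431 in siStat3. The list members that passed numbered 83 to 103 in those fits and 117 with all libraries. No called gene changed sign under any of these 13 alternatives. Jun and Stat3 passed in all of them. Genes that had not passed and lay near 0 changed sign without 1 library or another: Atf2 (-0.02) ranged from -0.079 to 0.081, Atf7 (-0.06) ranged from -0.25 to 0.068, Jak1 (-0.02) ranged from -0.091 to 0.053, Tyk2 (-0.06) ranged from -0.097 to 0.027, Pias1 (-0.03) ranged from -0.18 to 0.075, Atf4 (0.02) ranged from -0.027 to 0.066 and Rest (-0.05) ranged from -0.067 to 0.0023. Genes with few counts, such as Il6 and Inhbb, rest on a few CPM per library, and small differences in them were not detectable at this depth.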
